A study of Mus musculus with 6 samples.

Results

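The promoters described here are the wide, GC-rich stretches of accessible chromatin at protein-coding genes in mouse muscle nuclei. An interval of the deposited peak set was taken when it was at least 500 bp wide, its midpoint lay within 1 kb of the start of a protein-coding transcript on an autosome (transcription start site, TSS; GENCODE vM1 on mm9), and the 200 bp around its midpoint held at least 50% G and C. Intervals with protein-coding TSSs of different genes on both strands within 500 bp of the midpoint were left out. The rule kept 1318 of 39768 intervals (3.31%), or 6.93% of the 19018 autosomal promoter intervals, and they belonged to 1188 genes.

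Open chromatin was profiled by ATAC-seq, in which the Tn5 transposase inserts adapters where DNA is open, on 50000 nuclei per library. According to the labels the nuclei came from tibialis anterior muscle of C57BL/6 mice aged 7 weeks, whereas the study's methods describe hind limb muscles. The comparison asked whether accessibility depends on the histone variant H2A.Z, with 3 libraries per group. Both groups carried the genotype H2A.Z-1 flox/flox and H2A.Z-2 flox/flox, and therefore floxed alleles of both H2A.Z genes (H2afz and H2afv). CTL mice were HSA CRE -, and H2A.Z dKO mice were HSA CRE +. The HSA promoter drives Cre in skeletal muscle fibres, so nuclei of other cell types in the muscle are not recombined by it, and fewer fibre nuclei cannot be told apart from less signal per nucleus. Nothing in the labels says whether the libraries of a group came from separate mice, so a p-value given here measures the spread between libraries, which may be technical.

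Most mammalian protein-coding genes start in a CpG island, a stretch rich in G, C and the dinucleotide CpG that escapes DNA methylation. Such promoters usually lack a TATA box, start transcription at several nearby positions, and keep a nucleosome-depleted region upstream of the TSS that is open in many tissues. The nucleosomes flanking that region commonly contain H2A.Z, which the SRCAP and p400 complexes put in place of H2A. GC boxes (GGGCGG) are the recognition sequence of Sp and KLF factors, and CCAAT boxes that of NF-Y.

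The bases directly upstream of the annotated TSS are shown for 9 of these promoters, chosen for what they illustrate below. They are up to 150 bases of mm9 read on the strand of the gene, 5′ to 3′, ending at the base before the most upstream annotated protein-coding TSS of the gene inside the interval, and none of them lies in an annotated exon. Capitals mark GC boxes (GGGCGG or its reverse complement CCGCCC) and CCAAT boxes (CCAAT or its reverse complement ATTGG). The first pair are the promoters of the genes that were floxed, H2afz (chr3:137527301-137527450, plus strand) and H2afv (chr11:6344447-6344596, minus strand). Each holds 1 GC box and 2 CCAAT boxes, with 18 and 14 CpGs.
H2afz: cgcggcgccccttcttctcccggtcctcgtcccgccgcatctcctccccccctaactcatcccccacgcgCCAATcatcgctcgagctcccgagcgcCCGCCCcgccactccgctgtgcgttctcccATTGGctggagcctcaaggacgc
H2afv: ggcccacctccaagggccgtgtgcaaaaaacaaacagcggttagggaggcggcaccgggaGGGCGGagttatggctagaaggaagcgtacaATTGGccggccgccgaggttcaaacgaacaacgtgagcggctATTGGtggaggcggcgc
Shoc2 (chr19:54018662-54018795, plus strand) has the widest interval and Hip1 (chr5:136020993-136021142, minus strand) the highest density of counts. The Shoc2 window is 134 bases long and holds neither motif, and the Hip1 window holds 1 CCAAT box.
Shoc2: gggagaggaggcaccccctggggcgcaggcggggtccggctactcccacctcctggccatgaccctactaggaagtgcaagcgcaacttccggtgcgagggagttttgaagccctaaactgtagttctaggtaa
Hip1: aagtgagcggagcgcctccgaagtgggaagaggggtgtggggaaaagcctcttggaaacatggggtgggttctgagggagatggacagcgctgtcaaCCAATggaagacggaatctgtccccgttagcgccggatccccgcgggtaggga
Etv5 (chr16:22439793-22439942, minus strand) has the highest level among the muscle transcription regulators of a list given below. Its window holds 1 GC box and 1 CCAAT box.
Etv5: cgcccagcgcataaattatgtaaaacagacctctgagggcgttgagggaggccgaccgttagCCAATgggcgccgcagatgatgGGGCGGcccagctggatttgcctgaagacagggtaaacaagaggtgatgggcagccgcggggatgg
Ccdc150 (chr1:54307377-54307526, plus strand) and Ctsc (chr7:95426445-95426594, plus strand) are the intervals with the smallest p-value in each direction. Ccdc150 holds 1 CCAAT box and no GC box, and Ctsc 1 GC box and no CCAAT box.
Ccdc150: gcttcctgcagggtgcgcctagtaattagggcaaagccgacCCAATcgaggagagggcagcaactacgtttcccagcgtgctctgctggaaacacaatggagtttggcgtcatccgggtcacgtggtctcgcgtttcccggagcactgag
Ctsc: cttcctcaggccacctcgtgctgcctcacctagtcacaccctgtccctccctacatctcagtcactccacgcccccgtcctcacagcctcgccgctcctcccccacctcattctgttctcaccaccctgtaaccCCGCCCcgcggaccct
Ank (chr15:27396282-27396431, plus strand) and Slc10a6 (chr5:104058423-104058572, minus strand) are the extremes of base composition. The Ank window is 78.7% G and C with 29 CpGs and 2 overlapping GC boxes, and the Slc10a6 window is 49.3% G and C with 3 CpGs and neither motif.
Ank: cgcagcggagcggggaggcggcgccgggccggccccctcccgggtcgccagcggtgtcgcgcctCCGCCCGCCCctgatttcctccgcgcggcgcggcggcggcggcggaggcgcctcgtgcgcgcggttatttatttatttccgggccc
Slc10a6: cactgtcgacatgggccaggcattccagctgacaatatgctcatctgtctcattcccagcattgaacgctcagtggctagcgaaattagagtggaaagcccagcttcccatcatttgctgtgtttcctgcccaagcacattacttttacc

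Totals of counts in all intervals were 6117245, 4629146 and 3520008 in CTL. Those labelled H2A.Z dKO had 5873299, 4549968 and 5021343. Peak_7050 and Peak_7051, intervals of H2afz more than 1 kb downstream of the TSS, were summed to stand for the segment removed by Cre. Whether they lie inside the floxed segment was not checked. They gave 79, 69 and 33 counts in CTL and 57, 52 and 64 in H2A.Z dKO. In CPM, counts scaled to the library total, this was 12.4 ± 2.83 and 11.3 ± 1.28 (SD, n = 3, exact permutation p = 0.6, two-sided). These counts do not tell the groups apart in these nuclei, and for these libraries the genotypes rest on the labels. Of 20 marker genes of muscle fibres fixed for this work, 14 had a promoter interval and 0 a wide GC-rich one. The same held for 0 of 7 endothelial, 0 of 9 fibroblast and 0 of 5 satellite cell marker genes with a promoter interval, while none of the macrophage markers had any promoter interval. These lists are short, and among all 10003 genes with a promoter interval 11.9% had a wide GC-rich one.

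Widths ran from 500 to 1086 bp with a median of 581 bp, and the quartiles were 536 and 660.75 bp. The remaining GC-rich promoter intervals chosen by the same rule but narrower than 500 bp numbered 15132, with a median width of 189 bp. Where wide intervals overlapped they were joined into 1192 loci, of which 1090 held a single interval and 102 held more, up to 8 at Osbpl9. Overlapping intervals share fragment ends, and 515 of the 1318 (39.1%) overlapped another interval of any width. All 19 autosomes were represented, with most on chromosome 1 (106).

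The wide intervals spanned the TSS more often than the narrower ones did and reached further upstream than downstream. A protein-coding TSS lay inside 1221 of them (92.6%), against 48.9% of narrower GC-rich promoter intervals. Their midpoint lay a median of 56.5 bp upstream of the nearest TSS (narrower intervals, 17 bp upstream), and it was on the upstream side in 64.6% (narrower, 57.1%). The median upstream edge stood 366.5 bp before the TSS and the median downstream edge 251 bp after it, whereas the narrower intervals ended 135 bp before and 103 bp after. These shares are descriptions, since a wider interval covers any position more often.

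**Figure D1:**
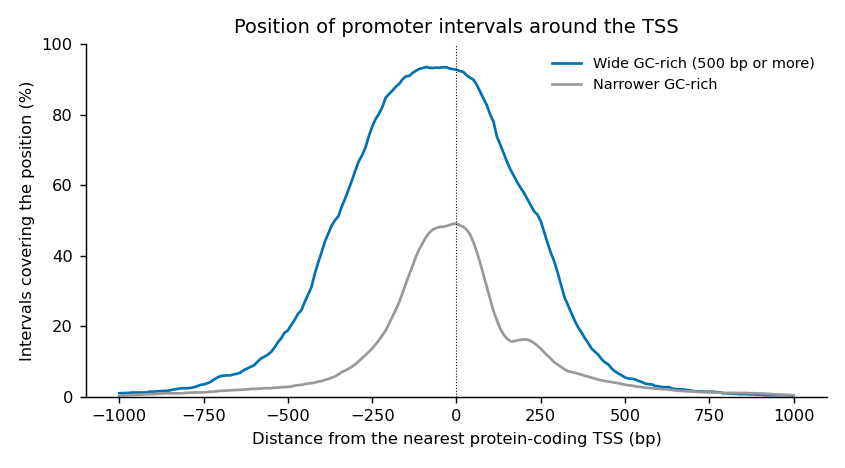
Share of intervals (%) that cover each position from 1000 bp upstream to 1000 bp downstream of the nearest protein-coding TSS, for the 1318 wide GC-rich promoter intervals (blue) and the 15132 narrower ones (grey). Coverage of the wide intervals was highest at -90 bp (93.5%), and the curve of the narrower ones reached 49.1% at the TSS.

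Each single position from 360 bp upstream to 240 bp downstream of the TSS was covered by more than 50% of the wide intervals, though not by the same ones throughout. At 200 bp upstream 85.8% of them were open, against 20.7% of the narrower ones, and at 200 bp downstream 57.8% against 16.3%. At 500 bp upstream the shares were 18.8% and 2.80%. Several annotated starts were common: 560 wide intervals (42.5%) held at least 2 protein-coding TSSs, against 17.9% of the narrower ones. The midpoint lay outside protein-coding transcripts in 684 (51.9%), in an untranslated part of an exon in 408 (31.0%), in an intron in 164 (12.4%) and in a coding exon in 62 (4.70%). Other annotated genes were not looked at.

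By base composition the wide intervals resembled CpG islands. The 200 bp around the midpoint held a median of 20 CpGs and 69.5% G and C (narrower, 17 CpGs and 66.0%). The ratio of observed to expected CpGs, which the rule did not use, had a median of 0.875, against 0.814 in narrower GC-rich promoter intervals and 0.519 over all intervals. It was at least 0.6 in 1224 (92.9%), against 78.1% of the narrower ones. The promoter of the tumour suppressor Rb1 had 85.0% G and C with a ratio of 1.10. At the other end Slc10a6, a transporter of sulfated steroids, had 50.0% G and C with a ratio of 0.328.

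GC boxes and CCAAT boxes were the motifs found in the largest shares of these promoters. Motifs were searched letter by letter on both strands in the 200 bp around the midpoint, so shares are over the same length. The windows were not placed alike around the TSS. Between the 10th and 90th percentiles, midpoints lay from -258 to 119 bp at wide intervals and from -312 to 340 bp at narrower ones. The part of this placement in the shares was not tested. A GC box (GGGCGG) was present in 76.9% of the wide intervals, in 60.2% of the narrower ones and in 58.7% of all promoter intervals. A CCAAT box (CCAAT) was present in 31.9%, 22.7% and 24.1% of the same sets. In contrast, the ETS core (CCGGAAG) was in 9.33% of wide, 12.1% of narrower and 12.4% of all promoter intervals. The TATA box (TATAAA) was in 1.06%, or 14 promoters, against 2.29% and 2.61%.

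**Figure D2:**
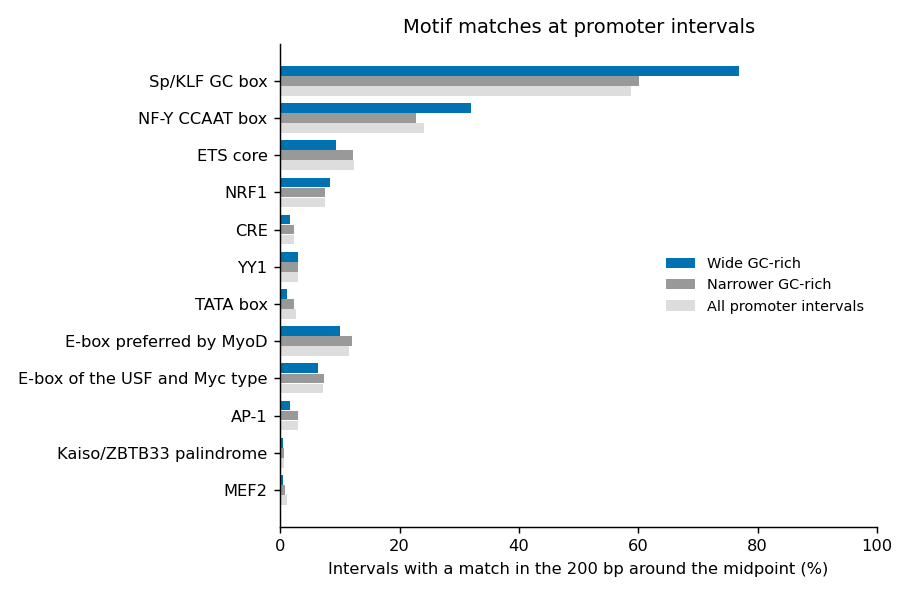
Share of intervals (%) with at least 1 exact match to each motif in the 200 bp around the midpoint, for wide GC-rich (blue), narrower GC-rich (dark grey) and all autosomal promoter intervals (light grey). GC boxes were in 76.9% and CCAAT boxes in 31.9% of the wide intervals, and both shares were above those of the other sets.

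The other motifs gave similar or lower shares than at promoters in general. NRF1 sites, searched by their palindromic consensus, which occur at genes of respiration, were in 8.35% of wide and 7.53% of all promoter intervals, and YY1 sites (AAGATGGC) in 3.03% and 3.05%. The E-box preferred by the myogenic factor MyoD (CAGCTG) was in 10.1% and 11.5%, and the E-box bound by USF and Myc (CACGTG) in 6.30% and 7.09%. CRE (TGACGTCA) was in 1.59% and 2.33%, AP-1 (TGANTCA) in 1.67% and 3.03%, and the Kaiso palindrome, searched by its consensus, in 0.531% and 0.589%. MEF2, searched by its consensus, was in 0.531% and 1.08%. Matches of different motifs may share bases, and a match says only that the letters are present.

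Both boxes varied with base composition in opposite directions. Among the 153 wide promoters of 50 to 60% G and C, 50.3% held a GC box and 58.2% a CCAAT box. Among the 514 of 60 to 70% the shares were 74.9% and 38.9%, and among the 651 above 70% they were 84.6% and 20.3%. Narrower intervals followed the same order, with GC boxes in 30.0%, 60.4% and 81.5% and CCAAT boxes in 32.0%, 25.1% and 13.1% of the 3 bands. In each of the 3 bands both shares were higher at the wide promoters.

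Wide GC-rich promoters had denser counts than narrower ones. Levels are given as RPKM, the count per kb of interval scaled to the total counted over all intervals of the library, which allows intervals of unequal width to be compared. The median level over the 6 libraries was 185 RPKM, with the 10th and 90th percentiles at 122.5 and 291, against 131 (82.6 to 217) for narrower GC-rich promoter intervals. Other wide promoter intervals were as dense or denser, with medians of 194 RPKM where TSSs diverged and 277 RPKM under 50% G and C. By library the medians were 184, 187 and 185 in CTL and 196, 177 and 179 in H2A.Z dKO, and the wide promoters were 1.38 to 1.44 times the narrower ones in each. Width comes from peak calls on these reads, in which stronger signal can extend an interval, so this order is a description. Across the 1318 promoters the correlation of log2 RPKM with width was weak (r = 0.191), and the points share libraries and partly reads.

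The wide promoters of 50 to 60% G and C had the highest density, with a median of 225 RPKM, followed by 200 RPKM at 60 to 70% and 169 RPKM above 70%. Narrower GC-rich intervals had 127, 133 and 130 RPKM in the same bands, without that order. By width, the median was 178 RPKM at 500 to 600 bp, 185 at 600 to 700 bp, 209 at 700 to 800 bp and 205 above.

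The highest level was found at Hip1, which encodes an adaptor of clathrin-coated vesicles (interval Peak_11883 of the deposited table, chr5:136020939-136021574, 636 bp). Its counts were 1717, 1337 and 1136 in CTL and 1597, 1333 and 1279 in H2A.Z dKO, or 468 ± 35.1 and 430 ± 30.1 RPKM (SD, n = 3). Next came Trim45, which encodes a protein of the TRIM family (544 bp), with 465 ± 29.5 and 424 ± 54.7 RPKM. Khsrp, an RNA-binding protein of splicing and mRNA decay (871 bp), had 482 ± 32.6 and 404 ± 29.8 RPKM. Rab40c, a small GTPase (676 bp), had 456 ± 16.3 and 425 ± 7.69 RPKM. Myst4, a histone acetyltransferase (670 bp), had 431 ± 33.5 and 445 ± 69.1 RPKM, and Ap2a1, a subunit of the AP-2 clathrin adaptor (700 bp), 452 ± 20.5 and 414 ± 34.7 RPKM. Of these 6, the libraries of the 2 groups did not overlap at Khsrp and Rab40c, which were lower in H2A.Z dKO, and overlapped at the other 4.

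The widest interval was that of Shoc2, a scaffold of Ras signalling (Peak_38992, chr19:54018361-54019446, 1086 bp), whose midpoint lay in an intron 107 bp downstream of the TSS. Counts were 1809, 1403 and 1120 in CTL and 1897, 1334 and 1428 in H2A.Z dKO, a log2 fold change of -0.02 ± 0.09 (SE, edgeR adjusted p = 0.997). Gphn, whose product gephyrin anchors inhibitory receptors at synapses (1047 bp), gave 997, 724 and 576 counts and 1269, 665 and 795. Slain2, a microtubule plus-end protein (1040 bp), gave 1245, 929 and 756 and then 1349, 862 and 1067. These groups overlapped at all 3 genes. Srcrb4d, a scavenger receptor family gene (1035 bp), gave 1355, 1137 and 766 counts in CTL and 1709, 958 and 1140 in H2A.Z dKO, again with overlap. Dnaja1, a co-chaperone of Hsp70 (1031 bp), gave 1041, 822 and 643 and then 945, 760 and 830. Its densities, 165, 172 and 177 RPKM against 156, 162 and 160, did not overlap, with a log2 fold change of -0.10 ± 0.09.

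Ripk2, a kinase of innate immune signalling with an interval of 1028 bp (chr4:16090464-16091491), stood apart for a single library. Its counts were 1731, 1332 and 1221 in CTL and 2978, 1215 and 1375 in H2A.Z dKO, and 2978 was the highest count of any wide promoter in any library. In RPKM the values were 275, 280 and 337 against 493, 260 and 266, so replicate 1 of H2A.Z dKO was high and the remaining replicates lay below every CTL library. The log2 fold change was 0.20 ± 0.24 with all libraries and -0.19 without that replicate.

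Between the groups, 0 of the 1318 wide GC-rich promoters passed an adjusted p of 0.05 in edgeR's quasi-likelihood test, and 0% of the 39768 intervals did. The smallest adjusted p of a wide promoter was 0.972. At an unadjusted p under 0.05, 45 wide promoters (3.41%) were counted, against 4.95% of all intervals. That order turned without replicate 1 of H2A.Z dKO (14.1% against 7.95%) and without its replicate 2 (7.89% against 5.38%). Of these, 19 (1.44%) were higher in H2A.Z dKO, where the share over all intervals was 2.64%, and 26 (1.97%) were lower, where it was 2.31%. DESeq2 gave 0 adjusted calls and 15 promoters (1.14%) at an unadjusted p under 0.05, against 1.9% of all intervals.

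Since depth was high at these intervals, sizes of difference could be bounded. The median count per library was 556, against 110 at narrower GC-rich promoters and 67.3 over all intervals, and the lowest count of any wide promoter in any library was 87. The 95% confidence interval had, on the log2 scale, a median half-width of 0.23, against 0.39 and 0.45. It lay within a 1.5-fold change in either direction at 1279 wide promoters (97.0%), against 49.6% of all intervals and 65.3% of narrower GC-rich promoters, but also at 97.6% of the wide intervals with divergent TSSs. A bound of 1.25-fold held at 722 (54.8%), against 7.09% and 9.50%. A bound of 2-fold held at all 1318, against 91.4% of all intervals. These intervals are for each promoter on its own and are not adjusted for the number of promoters.

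**Figure D3:**
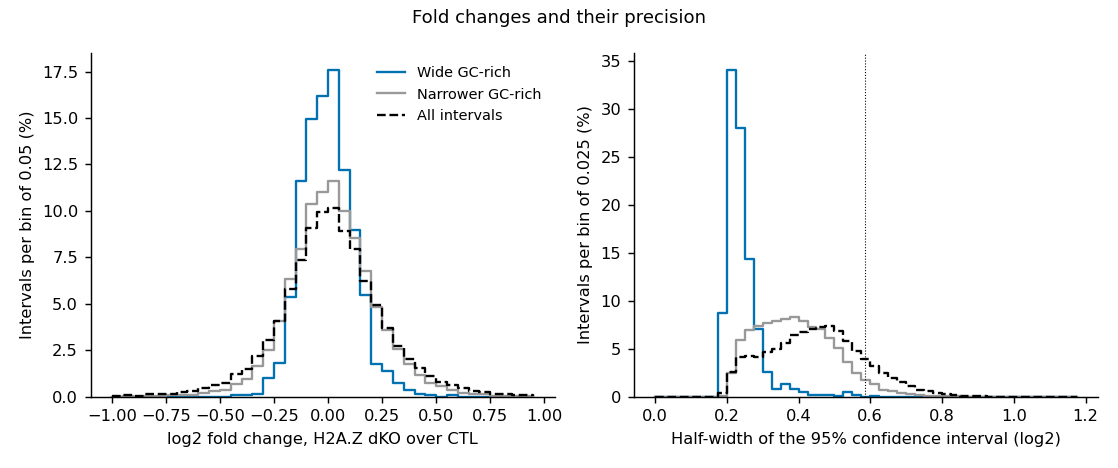
Distribution of the log2 fold change of H2A.Z dKO over CTL (left) and of the half-width of its 95% confidence interval (right, the dotted line marks 1.5-fold), as the share of intervals per bin (%), for wide GC-rich promoters (blue), narrower ones (grey) and all intervals (dashed). The wide promoters were centred at a median of -0.0035 and their median half-width was 0.23, against 0.45 for all intervals.

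The median log2 fold change of the wide promoters was -0.0035, against 0.012 over all intervals, with 643 above 0 and 675 below, and it rested on replicate 1 of H2A.Z dKO, without which it was -0.076. With loess offsets it was 0.025, against 0.010 over all intervals. It ran from -0.42 to 0.57, with 90% of the values between -0.18 and 0.19, and 1 promoter, Ctsc, exceeded 0.5 in size. Median size without regard to sign was 0.076, against 0.14 over all intervals. The wide promoters took 15.99%, 16.1% and 16.3% of the counts in CTL and 17.2%, 15.5% and 15.5% in H2A.Z dKO, or 16.1 ± 0.143% and 16.1 ± 0.965% (SD, n = 3, exact permutation p = 1, two-sided). The test of 3 against 3 libraries cannot go below 0.1.

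The promoter with the smallest p was that of Ccdc150, a coiled-coil protein gene (Peak_443, chr1:54307357-54307889, 533 bp). Counts were 481, 379 and 274 in CTL and 318, 268 and 326 in H2A.Z dKO, which corresponds to 148, 154 and 146 RPKM against 102, 111 and 122. All 3 H2A.Z dKO libraries were below all 3 CTL libraries. The log2 fold change was -0.42 ± 0.11 (SE, 95% interval -0.66 to -0.19), with an edgeR p of 0.00114 and an adjusted p of 0.972, so it did not pass the test over all intervals.

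The other promoters with the smallest p among those lower in H2A.Z dKO also had groups without overlap. Alkbh6, of the AlkB family of dioxygenases (582 bp), had 219, 217 and 225 RPKM in CTL and 156, 190 and 180 in H2A.Z dKO, a log2 fold change of -0.34 ± 0.10. Tmem218, a transmembrane protein gene (539 bp), had 243, 256 and 263 RPKM against 159, 234 and 204, or -0.36 ± 0.12. Khsrp, named above for its level, had 444, 499 and 502 RPKM against 376, 436 and 402, or -0.25 ± 0.09. None passed adjustment (edgeR adjusted p = 0.972 for each). Without replicate 1 of H2A.Z dKO the log2 fold changes were -0.38 at Ccdc150, -0.28 at Alkbh6, -0.23 at Tmem218 and -0.22 at Khsrp.

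Among those higher, the smallest p belonged to Ctsc, which encodes the lysosomal protease cathepsin C (Peak_15860, chr7:95426275-95426778, 504 bp). Counts were 169, 96 and 101 in CTL and 285, 163 and 146 in H2A.Z dKO, or 54.8, 41.1 and 56.9 RPKM against 96.3, 71.1 and 57.7. The groups did not overlap, although the lowest H2A.Z dKO library lay close to the highest CTL library. The log2 fold change was 0.57 ± 0.19 (SE, 95% interval 0.17 to 0.97, edgeR adjusted p = 0.972), and 0.31 without replicate 1. Ctsc was listed by the authors among regions of the H2A.Z dKO set only, and its level was well below the 122.5 RPKM of the 10th percentile.

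Pknox2, a homeobox gene of the TALE class, was named through 2 overlapping intervals of 677 and 634 bp that share most reads. The wider one had 108, 120 and 115 RPKM in CTL and 196, 133 and 129 in H2A.Z dKO, a log2 fold change of 0.43 ± 0.15, and 0.18 without replicate 1. The narrower one had a log2 fold change of 0.45 ± 0.16, and 0.16 without replicate 1. Like Ctsc, both were listed for H2A.Z dKO alone, so they entered the table through the group in which they are high. Arhgap42, which encodes a GTPase-activating protein (536 bp), had 84.5, 88.3 and 93.8 RPKM against 122, 104 and 110, or 0.34 ± 0.13. Adjusted p in edgeR was 0.972 for each, and replicate 1 was the highest library at each.

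With counts scaled by TMM totals, groups did not overlap at 150 wide promoters (11.4%), against 10.8% of all intervals. The split was uneven: 32 (2.43%) were higher in H2A.Z dKO, against 5.22% of all intervals, and 118 (8.95%) were lower, against 5.63%. Replicate 1 of H2A.Z dKO was the highest of the 6 libraries at 699 wide promoters (53.0%), against 37.6% of narrower GC-rich promoters and 24.3% of all intervals, and a promoter that was lower without overlap cannot be one of these. The median level relative to the mean of the 6 libraries, on the log2 scale, was -0.0015, 0.0086 and 0.0074 in CTL and 0.12, -0.070 and -0.062 in H2A.Z dKO.

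At narrower GC-rich promoters replicate 1 was also the highest library and the other H2A.Z dKO replicates the lowest. Their relative levels were 0.0016, 0.010 and 0.0018 in CTL and 0.092, -0.038 and -0.034 in H2A.Z dKO. The wide minus narrower difference moved by -0.0094 between the groups (exact permutation p = 0.8, two-sided), and all of the CTL libraries lay between replicate 1 and the other H2A.Z dKO replicates. Leaving out replicate 1 moved it to -0.031 (exact permutation p = 0.1, the smallest that this split of libraries allows). Over all single libraries left out it ran from there to -0.0021. Set against narrower intervals of at least 300 bp only, it was 0.029 with all libraries. Without replicate 1 the median log2 fold change of the wide promoters was -0.076, the number at an unadjusted p under 0.05 was 186 (14.1%, against 7.95% of all intervals), and the number past adjustment was still 0, with a smallest adjusted p in edgeR of 0.392.

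**Figure D4:**
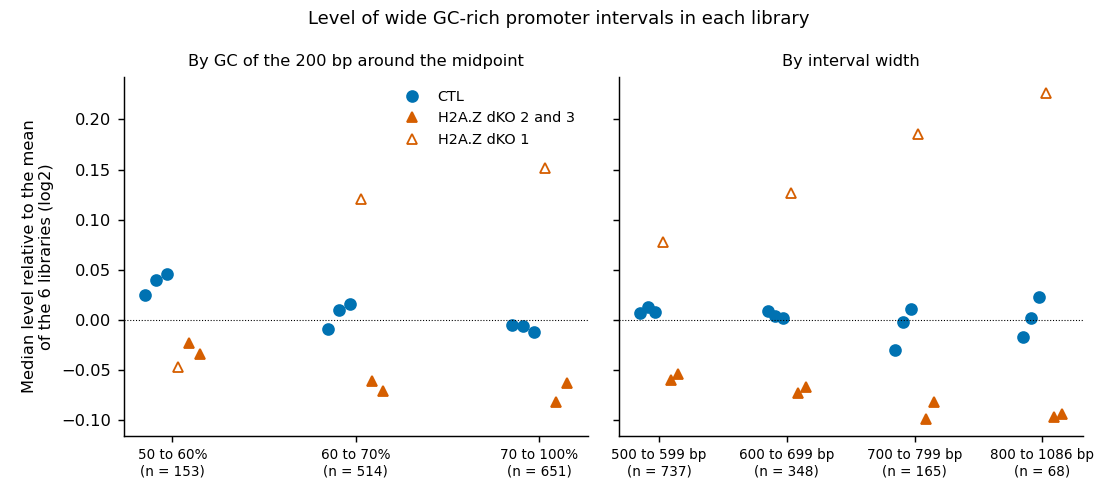
Median level of the wide GC-rich promoters in each library relative to the mean of the 6 libraries (log2), by G and C content (left) and by width (right), with CTL as circles and H2A.Z dKO as triangles, open for replicate 1. In the band of 50 to 60% all H2A.Z dKO libraries were below all CTL libraries, and in the other bands replicate 1 was the highest library.

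The height of replicate 1 varied with base composition and with width. Its relative level was -0.047 in wide promoters of 50 to 60% G and C, 0.12 at 60 to 70% and 0.15 above 70%. By width it was 0.078 at 500 to 600 bp, 0.13 at 600 to 700 bp, 0.19 at 700 to 800 bp and 0.23 above. The part of base composition and width in the comparison between the groups was not tested beyond these bands.

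In the band of 50 to 60% G and C the groups did not overlap. CTL libraries were at 0.025, 0.040 and 0.046 and H2A.Z dKO libraries at -0.047, -0.022 and -0.034 (exact permutation p = 0.1, two-sided, the smallest that 3 against 3 allows). The median log2 fold change of these 153 promoters was -0.063, and at an unadjusted p under 0.05 there were 0 higher and 7 lower (4.58%), against 2.64% and 2.31% of all intervals. Narrower promoters of that band showed the same order with a smaller distance, from 0.010 to 0.029 in CTL and from -0.021 to 0.0080 in H2A.Z dKO. At 60 to 70% there were 9 wide promoters higher (1.75%) and 16 lower (3.11%), and above 70% 10 higher (1.54%) and 3 lower (0.461%). In both of these bands the groups overlapped (exact permutation p = 1). Without replicate 1 of H2A.Z dKO, the 3 bands had median log2 fold changes of -0.074, -0.080 and -0.072 at wide promoters. Those of narrower ones were -0.023, -0.041 and -0.044, in the same order of rising G and C. Gtpbp1, a GTPase of mRNA turnover with the lowest G and C content next to Slc10a6 (50.0%), had 326, 330 and 353 RPKM in CTL and 221, 312 and 319 in H2A.Z dKO, a log2 fold change of -0.25 ± 0.11 (edgeR adjusted p = 0.972), and -0.11 without replicate 1. Slc10a6 is listed through a pair of intervals with identical ends and counts, and its log2 fold change was 0.0025 ± 0.14. Promoters with a CCAAT box, which were more frequent in the band of low G and C, had a median log2 fold change of -0.040, and those without one 0.014. With a GC box it was -0.00054 and without one -0.010. The medians by motif were not computed without replicate 1, and the part of base composition in them was not tested.

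At the highest G and C content the groups overlapped as well. Ank, a transmembrane protein of pyrophosphate transport (86.5% G and C), had 165, 145 and 138 RPKM in CTL and 125, 175 and 167 in H2A.Z dKO. Rb1 had 115, 121 and 126 against 114, 122 and 102, and Tapt1, another transmembrane protein gene (84.5%), 117, 120 and 119 against 135, 124 and 111. Log2 fold changes were 0.048 ± 0.12, -0.094 ± 0.11 and 0.062 ± 0.12.

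Genes of muscle transcription regulation were represented by 8 genes with 9 wide GC-rich promoters, out of 58 list genes with a promoter interval (13.8%, against 11.9% of all 10003 genes). They were Esrra, Etv5, Hif1a, Klf10, Max, Mef2a, Mkl1 and Smad3. Their median log2 fold change was -0.050, against -0.0035 for all wide promoters, and 0 passed the test, also at an unadjusted p under 0.05. Without replicate 1 of H2A.Z dKO the median of all wide promoters was -0.076. The named intervals of the list then ran from -0.24 at Klf10 to 0.030 at Max. Etv5, an ETS factor (554 bp), had 313, 319 and 328 RPKM in CTL and 248, 323 and 308 in H2A.Z dKO. Esrra, the oestrogen-related receptor that drives mitochondrial genes (568 bp), had 292, 278 and 312 against 270, 271 and 281. Groups overlapped at Etv5, and at Esrra they overlapped in RPKM but not once totals were scaled by TMM factors. Mkl1, the coactivator of SRF (561 bp), had 274, 267 and 268 against 243, 271 and 262, and Max, the partner of Myc (825 bp), 236, 240 and 227 against 268, 249 and 238, with overlap at both.

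Klf10, a TGF-beta-induced zinc finger repressor (845 bp), was the muscle regulator with the widest spread among H2A.Z dKO libraries. It had 247, 262 and 239 RPKM in CTL and 296, 200 and 230 in H2A.Z dKO, a log2 fold change of -0.037 ± 0.12, and -0.24 without replicate 1. Hif1a, the oxygen-sensing factor, had 2 nearly identical intervals of 581 and 582 bp, the first with 197, 204 and 188 RPKM against 202, 190 and 177. Smad3, which transmits TGF-beta and myostatin signals (676 bp), had 190, 181 and 192 against 207, 188 and 171. At these 3 genes the groups overlapped, and the 95% interval of each of the 8 named intervals lay within a 1.5-fold change.

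The factors that make, place or carry H2A.Z had 5 wide GC-rich promoters among 24 list genes with a promoter interval (20.8%). Both H2A.Z genes were among them. H2afz (Peak_7049, chr3:137526967-137527589, 623 bp) gave 772, 578 and 428 counts in CTL and 926, 611 and 558 in H2A.Z dKO, or 199 ± 3.81 and 216 ± 37.3 RPKM. By library it had 253, 216 and 178 RPKM in H2A.Z dKO around a narrow CTL range of 195 to 203. The log2 fold change was 0.12 ± 0.12 (95% interval -0.13 to 0.37, edgeR adjusted p = 0.983), and -0.044 without replicate 1. H2afv (Peak_23798, chr11:6344046-6344804, 759 bp) gave 1174, 929 and 564 counts against 1171, 808 and 884, or 243 ± 28.0 and 243 ± 17.2 RPKM. Its log2 fold change was -0.00015 ± 0.11 (95% interval -0.22 to 0.22). The promoters of both genes targeted by Cre thus overlapped between the groups.

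**Figure D5:**
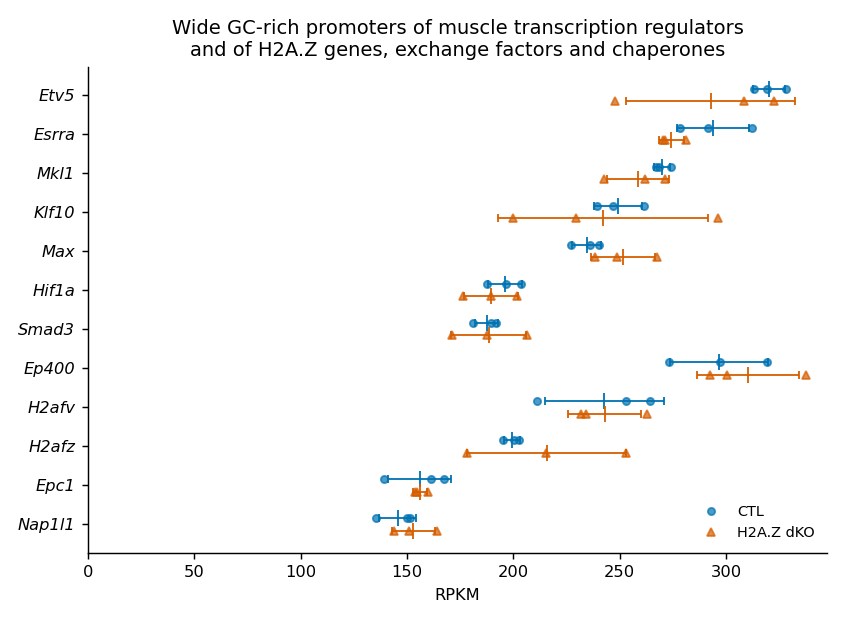
RPKM of the wide GC-rich promoter of each named muscle transcription regulator and each H2A.Z gene, exchange factor or chaperone, per library (points) with the mean (vertical tick) and SD (horizontal bar) of 3 CTL libraries (blue) and 3 libraries labelled H2A.Z dKO (orange). Hif1a is drawn once, by the 581 bp interval. In RPKM the groups overlapped at all 12 genes.

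Ep400, the catalytic subunit of the p400 exchange complex (636 bp), had 273, 297 and 319 RPKM in CTL and 338, 301 and 292 in H2A.Z dKO. Epc1, another subunit of that complex (677 bp), had 139, 161 and 167 against 160, 155 and 154. Nap1l1, a histone chaperone (580 bp), had 150, 151 and 136 against 144, 164 and 151. All 3 overlapped, with log2 fold changes of 0.069 ± 0.10, 0.0049 ± 0.11 and 0.066 ± 0.11, and 0 of the 5 promoters of the list passed the test. The median of the list was 0.066, with 4 above 0 and 1 below, and without replicate 1 of H2A.Z dKO it was -0.031, with 1 above and 4 below.

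For other gene lists the share of genes with a wide GC-rich promoter is given beside the 11.9% of all genes with a promoter interval, as a description. Among immediate early and stress response genes 15 of 64 with a promoter interval had one (23.4%), including Atf3, Jun, Jund, Klf2, Klf6, Nr4a2 and the clock gene Per2. Their median level was 226 RPKM and their median log2 fold change -0.041, with 7 above 0 and 8 below. RNA processing factors had one in 10 of 61 genes (16.4%), chromatin regulators in 9 of 61 (14.8%) and ubiquitin, proteasome and atrophy genes in 10 of 77 (13.0%). Their median log2 fold changes were 0.0034 (5 above 0, 5 below), 0.057 (8 above, 2 below) and 0.013 (5 above, 5 below). Respiratory chain and glycolysis genes had one in 7 of 69 (10.1%), with a median log2 fold change of -0.036 (2 above 0, 6 below), among them Ugp2, the single promoter of all lists with an unadjusted p under 0.05 (higher, log2 fold change 0.32). Sarcomere and contraction genes had one in 2 of 42 (4.76%, Tpm1 and Sgcb, both above 0 with a median of 0.17). In none of these lists did a promoter pass the adjusted threshold in edgeR, as 0% of all intervals did.

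The authors listed 1189 of the wide promoters (90.2%) in both groups. A further 95 (7.21%) were listed for H2A.Z dKO alone and 34 (2.58%) for CTL alone, against 50.8%, 32.2% and 17.0% of the narrower ones. By the study's methods a region counted for a group only where the peaks of all 3 of its libraries shared it.

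Values on either side of the width threshold are given for the intervals with the highest counts at that width. Just inside it, at 500 bp, Hspbp1, a regulator of Hsp70, had 210 ± 10.5 RPKM in CTL and 217 ± 15.96 in H2A.Z dKO. Akap8l, a nuclear anchoring protein gene, had 200 ± 10.2 and 198 ± 31.3, and Gzf1, a zinc finger gene, 204 ± 12.5 and 186 ± 13.5. Just outside it, at 499 bp, the mitochondrial gene Tmem11 had 323 ± 11.5 and 299 ± 37.8 RPKM, the splicing factor gene Hnrnpl 321 ± 12.2 and 279 ± 28.7, and Spag7 289 ± 25.4 and 299 ± 16.6 (SD, n = 3 throughout). The 169 wide GC-rich intervals left out for divergent TSSs had a median width of 585 bp, a median level of 194 RPKM and a median log2 fold change of -0.014. At an unadjusted p under 0.05, 2 of them were higher (1.18%, against 2.64% of all intervals) and 10 lower (5.92%, against 2.31%), and 0 passed adjustment. The 13 wide promoter intervals under 50% G and C had a median level of 277 RPKM and a median log2 fold change of -0.11.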

How the data were processed

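The authors trimmed adapters, mapped read pairs to mm9 with Bowtie (Bowtie2 in the submitters' processing notes), removed duplicates with Picard, corrected fragment ends for the offset of Tn5, and used MACS2 to call peaks. Regions shared by the libraries of a group were merged over both groups, and the deposited values are raw counts of fragment ends per interval and library. The study's methods state more union intervals than the table analysed here holds. The deposited fold changes, standard errors and p-values of the authors' comparison were not used, and no count column was left unused (0). Starts were read as 0-based and are printed 1-based.

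Counts of all 39768 intervals were compared with edgeR 4.0.16 in R 4.3.3 (TMM factors 0.971 to 1.02, robust quasi-likelihood test, no filter, no block, Benjamini-Hochberg adjustment over all intervals, threshold 0.05, biological coefficient of variation 0.126). Standard errors were derived from the log2 fold change and its F statistic. Relative levels are log2 CPM with a pseudocount of 0.5. The procedure was tested on simulated data. DESeq2 1.42.0, other scalings, a filter, a replicate block and leaving out libraries were alternatives. Overlapping intervals share reads and are not independent, and errors cover counting and the spread between 3 libraries only.

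Wide promoters were named by rule: the 6 widest, the 6 with the highest RPKM, the 4 with the smallest p in each direction, 3 on each side of the width threshold, 3 at each extreme of G and C, and up to 8 of each of the lists of muscle transcription regulators and H2A.Z factors. Mef2a, Osbpl9, Ugp2 and the other genes of the lists were named after their values were seen. The members, lists and rules were chosen with earlier results of these data known.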

Additional observations from a re-analysis of the deposited data

How the results depend on the processing

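With 3 libraries a group, small differences rest on single libraries. No wide promoter and no other interval passed an adjusted p of 0.05 in edgeR under any of the 5 other edgeR settings, in DESeq2 or with any library left out (0 in each). The number of wide promoters at an unadjusted p under 0.05 was 45, 15 in DESeq2, and between 13 and 186 with 1 library left out. As shares of wide promoters and of all intervals these were 1.90% and 4.92%, 1.59% and 4.21%, and 0.986% and 3.18% without CTL replicates 1, 2 and 3, and 14.1% and 7.95%, 7.89% and 5.38%, and 4.93% and 5.60% without H2A.Z dKO replicates 1, 2 and 3. DESeq2 gave 756 intervals in all against 1970. The share of wide promoters with an interval within 1.5-fold stayed between 92.6% and 99.8%. The difference in the share of counts, -0.071 percentage points, ranged from -0.628 to 0.209 with 1 library left out, that in median RPKM, -1.05, from -7.13 to 2.66, and the median log2 fold change from -0.076 to 0.028, and with loess offsets the last was 0.025. Set against narrower intervals of at least 300 bp, the wide minus narrower difference was 0.029 in place of -0.0094, with exact permutation p = 1. With 1 library left out it ran from -0.031 to -0.0021. The cause of these shifts was not tested. The number of members was 1885 at 450 bp, 879 at 550 bp, and between 1271 and 1487 under the other 6 changes of the rule.

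Over all intervals, deviations of same-numbered libraries from their group means were not positively correlated (-0.088, -0.051 and -0.028). The labels do not say what the number stands for, and a batch that shifts only some intervals could go unseen. With the replicate block 40 wide promoters and 1756 intervals had an unadjusted p under 0.05 in edgeR and 0 an adjusted one. Small log2 fold changes turned sign: Shoc2 (0.026) and Akap8l (0.020) with loess offsets, Slc10a6 with the block (-0.013), and H2afv with median-of-ratios factors (0.0033), loess offsets (0.038), DESeq2 (0.0035) and the block (0.0040). Without H2A.Z dKO replicate 1, log2 fold changes fell in size to 0.31 at Ctsc, 0.18 and 0.16 at Pknox2 and -0.11 at Gtpbp1. Leaving out 1 library turned 18 of the 41 named intervals at least once. Their ranges were -0.10 to 0.013 for Shoc2, -0.10 to 0.23 for Gphn, -0.058 to 0.11 for Slain2, -0.084 to 0.20 for Srcrb4d, -0.19 to 0.38 for Ripk2, -0.11 to 0.12 for Myst4, -0.0097 to 0.11 for Hspbp1, -0.12 to 0.12 for Akap8l, -0.14 to 0.16 for Slc10a6, -0.031 to 0.16 for Ank, -0.035 to 0.13 for Tapt1, -0.24 to 0.092 for Klf10, -0.087 to 0.074 for Smad3, -0.018 to 0.13 for Ep400, -0.089 to 0.067 for H2afv, -0.044 to 0.24 for H2afz and -0.072 to 0.058 for Epc1.

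Restricting to the widest interval of each locus or to those listed for both groups, chosen after seeing the data, left 39 of 1192 (3.27%) and 39 of 1189 (3.28%) at an unadjusted p under 0.05, against 4.95% of all intervals.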
